A study of Mus musculus with 12 samples.

Results

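The chemokine system was measured as 48 genes on 52 probes, of 16675 named genes and 29922 probes on the array. A probe was a member if its annotated symbol was Ccl, Cxcl, Ccr or Cxcr followed by a number, or Cx3cl1, Cx3cr1, Xcl1 or Xcr1. They comprised 16 probes of CC ligands, 18 of CXC ligands (14 genes), 2 of CX3C and XC ligands, 10 of CC receptors, 4 of CXC receptors and 2 of CX3C and XC receptors. RNA came from tissue labelled muscle of BALB/c mice, on 12 1-colour arrays in 4 groups of 3. The normal mock and normal mcIRBP mice were female, and the diabetic mock and diabetic mcIRBP mice were male. Mock mice are labelled untreated, and treated mice received 2.5 nmol of mcIRBP, an insulin receptor-binding protein of bitter melon (Momordica charantia). The route, the time of sampling, the age and the means of making the mice diabetic are not given in the sources used here, and no label ties the 3 arrays of a group to 3 separate mice. The p-values therefore measure the spread between these arrays, which may be technical.

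Chemokines are small secreted proteins that guide leukocytes along a concentration gradient. They are sorted into CC, CXC, CX3C and XC ligands by the spacing of their first cysteines, and they act on receptors with 7 membrane-spanning helices that couple to inhibitory G proteins. In fat and muscle the CC ligands that bind Ccr2 are known for drawing monocytes from blood, and ligand genes are made by resident macrophages, endothelium, fibroblasts and adipocytes as well as by arriving cells.

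Levels below are normalized intensities on the log2 scale, with a higher value for a brighter probe. A probe was above the floor threshold of an array when its raw intensity exceeded the most frequent raw value by 5 SD of the values mirrored below that mode. Between 2642 and 3824 probes were above it on the normal mock arrays, 5391 to 8159 on normal mcIRBP, 9489 to 12451 on diabetic mock and 4302 to 7855 on diabetic mcIRBP. The arrays did not look alike in tissue content. In the same group order, 2, 1, 4 and 3 of 18 skeletal muscle markers passed it on each of the 3 arrays, against 13, 1, 2 and 0 of 14 liver markers, 0, 0, 12 and 13 of 14 epididymis markers and 9, 10, 11 and 6 of 11 adipocyte markers. The labelled tissue was therefore not borne out by these counts, though some muscle markers were detected. Of the 18, Myh7, Tnnt3, Tnni2, Actn3, Myog and Myod1 were above the threshold on none of the 12 arrays. Acta1, Myh4, Tnnc2, Ckm, Mylpf, Atp2a1 and Mb were above it on at least 1 normal mock and at least 1 normal mcIRBP array. Disease state, sex and the set of arrays that the authors normalized together coincided and cannot be told apart.

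The ligands Ccl6, Ccl9 and Cxcl4 carried the main pattern, and the stretches before their start sites are printed here with that of Cxcl10, an interferon-induced ligand that did not share the pattern. Each is the 250 bases upstream of the start site in RefSeq, build GRCm38.p6, on the gene's strand. They lie at chr11:83593088-83593337 on the minus strand for Ccl6, chr11:83578637-83578886 on the minus strand for Ccl9, chr5:90772185-90772434 on the plus strand for Cxcl4 (Pf4 in RefSeq) and chr5:92348890-92349139 on the minus strand for Cxcl10. Capitals mark matches on either strand to the NF-kB consensus, to the AP-1 motif TGANTCA or to the core of the interferon response element, GAAA and GAAA with any 2 bases between them.
Ccl6: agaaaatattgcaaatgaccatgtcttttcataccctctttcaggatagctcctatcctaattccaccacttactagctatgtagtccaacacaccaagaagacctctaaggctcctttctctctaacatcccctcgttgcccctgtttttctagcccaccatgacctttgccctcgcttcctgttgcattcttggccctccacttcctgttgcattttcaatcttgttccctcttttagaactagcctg
Ccl9: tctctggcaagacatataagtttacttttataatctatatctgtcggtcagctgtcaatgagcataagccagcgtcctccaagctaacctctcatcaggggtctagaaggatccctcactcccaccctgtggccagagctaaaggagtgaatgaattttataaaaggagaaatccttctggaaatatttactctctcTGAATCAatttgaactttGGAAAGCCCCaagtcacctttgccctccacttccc
Cxcl4: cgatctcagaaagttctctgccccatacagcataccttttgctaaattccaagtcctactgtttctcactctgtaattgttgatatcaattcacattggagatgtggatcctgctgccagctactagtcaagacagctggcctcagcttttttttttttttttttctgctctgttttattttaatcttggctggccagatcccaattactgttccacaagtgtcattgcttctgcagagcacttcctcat
Cxcl10: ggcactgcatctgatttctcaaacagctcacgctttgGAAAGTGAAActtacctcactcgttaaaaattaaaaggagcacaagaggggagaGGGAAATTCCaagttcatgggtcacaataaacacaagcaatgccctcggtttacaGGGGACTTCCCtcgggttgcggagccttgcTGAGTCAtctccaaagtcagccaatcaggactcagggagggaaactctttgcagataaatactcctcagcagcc
Ccl9 held 1 match to the NF-kB consensus and 1 to AP-1, and Cxcl10 held 3 NF-kB matches, of which the 2 nearest the start site overlap, with 1 AP-1 and 1 interferon element match. Ccl6 and Cxcl4 held none of these letters in the window. A promoter was at hand for 36 of the 48 genes, in 38 windows. The NF-kB consensus occurred in 26.3% of these windows and in 7.25% of all 32851 windows of that length, AP-1 in 10.5% and 6.75%, the interferon element in 5.26% and 2.98%, and a TATA box (TATAAA, gene strand only, not capitalised) in 28.9% and 7.59%. A match is a stretch of letters and not a measured site.

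Detection of the members differed between the groups and between ligands and receptors. Of the 52 probes, 8 passed the threshold on each of the 3 normal mock arrays, 21 on normal mcIRBP, 20 on diabetic mock and 9 on diabetic mcIRBP, or 15.4%, 40.4%, 38.5% and 17.3%. For all probes of the array the shares were 7.49%, 15%, 30% and 14%. Members of the ligand classes made up all of these counts: 4, 9, 9 and 4 of 16 CC ligand probes and 4, 12, 11 and 5 of 18 CXC ligand probes. Ccl6, Ccl9, Ccl11 and Cxcl4 were above the threshold on all 12 arrays, and 20 members were above it on none. With 2 of 3 arrays sufficing, diabetic mcIRBP had 16 members in place of 9. The threshold itself sat higher on normal mock arrays, where the lowest normalized value above it was 6.85 to 7.24, against 5.98 to 6.75 on the other 9 arrays, so a dim gene had to be brighter there to count.

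**Figure D1:**
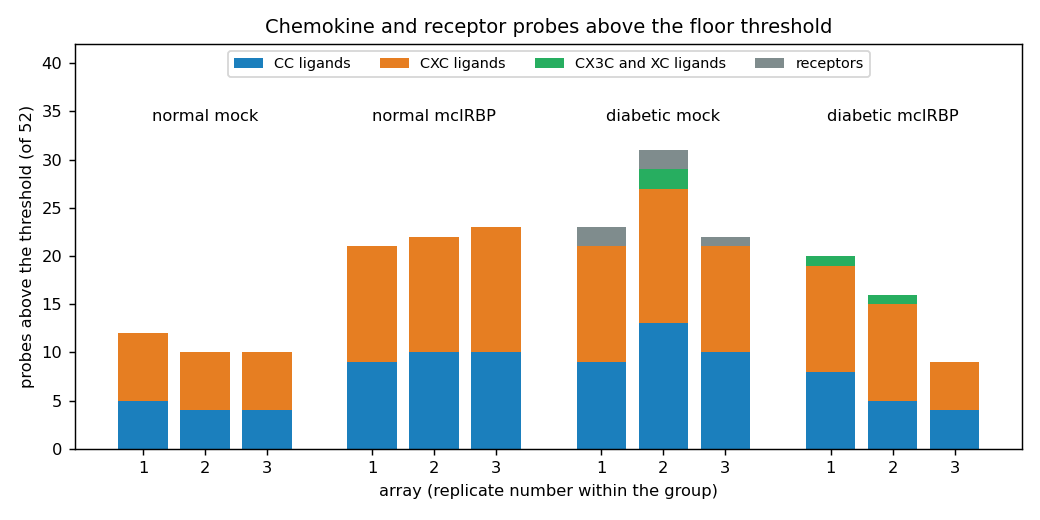
Number of the 52 chemokine and receptor probes above the floor threshold on each of the 12 arrays, stacked by ligand class and receptors. The normal mock arrays had 10 to 12, normal mcIRBP 21 to 23, diabetic mock 22 to 31 and diabetic mcIRBP 9 to 20, and receptors appear only on diabetic mock arrays.

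The first comparison asked what mcIRBP changed in mice without diabetes. After mcIRBP 10 of the 52 member probes were higher and 0 lower (limma's moderated test, Benjamini-Hochberg adjusted p under 0.05 over all 29922 probes; at an unadjusted p under 0.05 there were 15 higher and 2 lower). Of all probes 6.17% were called, 3.46% higher and 2.71% lower. The 10 were 6 CC ligands, Ccl2, Ccl3, Ccl4, Ccl6, Ccl9 and Ccl12, and 4 CXC ligands, Cxcl4, Cxcl10, Cxcl14 and Cxcl16. The median log2 fold change was 0.47 over CC ligand probes, 0.22 over CXC ligand probes and -0.004 over all probes.

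Among the ligands of Ccr2, which draw monocytes, Ccl12 had the largest fitted rise of the 52 probes. Its levels were 6.0, 5.89 and 5.96 on the normal mock arrays, all below the threshold, and 7.02, 9.95 and 9.76 on the normal mcIRBP arrays. The groups did not overlap, and replicate 1 of the treated mice stood apart below the other two. The rise was at least 3.56-fold (log2 fold change 2.96, SE 0.66, adjusted p = 0.0254). Ccl2 had 8.53, 8.06 and 8.29 on normal mock and 9.93, 9.89 and 9.15 on normal mcIRBP, again without overlap, a 2.57-fold rise (log2 1.36, SE 0.19, adjusted p = 0.00214). Ccl7, another ligand of this receptor, was below the threshold on the normal mock arrays at 6.61, 6.36 and 6.75 and had 8.15, 6.30 and 8.19 after mcIRBP, so replicate 2 lay below every control array and the call was not made (adjusted p = 0.207).

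Ccl6 and Ccl9, mouse ligands of Ccr1 made by myeloid cells, and Cxcl4, the platelet factor stored in platelet granules, were bright on every array. Ccl6 had 7.71, 8.16 and 7.93 on normal mock and 8.62, 9.65 and 8.84 on normal mcIRBP (log2 1.11, SE 0.23, adjusted p = 0.0179). Ccl9 had 9.85, 9.92 and 9.56 and then 10.79, 11.41 and 10.96 (log2 1.28, SE 0.17, adjusted p = 0.00172). Cxcl4 had 8.58, 8.39 and 8.38 and then 9.17, 10.09 and 9.54 (log2 1.15, SE 0.21, adjusted p = 0.00949). In these 3 genes every treated array lay above every control array, and replicate 2 was the highest.

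Ccl3 and Ccl4, inflammatory ligands made by activated macrophages, stayed below the threshold on the 3 normal mock arrays and passed it on the 3 normal mcIRBP arrays. Ccl4 had 5.90, 5.76 and 5.84 and then 6.79, 7.72 and 7.24, a rise of at least 1.13-fold (log2 1.42, SE 0.18, adjusted p = 0.00104). Ccl3 had 5.82, 5.80 and 6.41 and then 6.37, 7.01 and 6.85, where the lowest treated array lay just under the highest control array (log2 0.74, SE 0.18, adjusted p = 0.0423). No fold is given for Ccl3, because the bound against the threshold is under 1. Cxcl10, an interferon-induced ligand of Cxcr3 that attracts activated T cells, had 6.96, 6.59 and 7.34 on normal mock, with 2 of 3 arrays above the threshold. It had 7.91, 8.95 and 8.52 after mcIRBP, without overlap (log2 1.5, SE 0.24, adjusted p = 0.00506).

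The smaller CXC rises were of 1 probe each for genes that have 2. The Cxcl14 probe mMC011383 was higher by 0.60 on the log2 scale (SE 0.10, adjusted p = 0.00581), while the estimate of its other probe mMR030424 was also 0.60 with a wider error (SE 0.23, adjusted p = 0.173). Cxcl14 is a ligand made by resting epithelia. Both Cxcl14 probes were below the threshold on every normal mock array. For Cxcl16, a membrane-bound ligand of Cxcr6, probe mMR001166 had 0.65 (SE 0.13, adjusted p = 0.0171) and probe mMC012174 had 0.25 (SE 0.35, adjusted p = 0.708). Probe mMR001166 was likewise below the threshold on every normal mock array, and no fold is given for it or for Cxcl14 probe mMC011383, because the bounds are under 1. The neutrophil attractants that act through Cxcr2 were not called: Cxcl1 had 9.26, 9.62 and 9.27 on normal mock and 10.22, 6.87 and 11.09 after mcIRBP, so 2 treated arrays lay above the controls and replicate 2 far below them. Cxcl2 (log2 0.75, adjusted p = 0.149) and Cxcl5 (log2 0.19, adjusted p = 0.646) also missed the threshold.

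Normal mcIRBP replicate 2 stood apart from replicates 1 and 3 in more than Cxcl1. Ccl7 and Ccl11 were also lowest there, with Ccl11 at 8.75 against 10.44 and 10.61. The summed level of 11 fibroblast markers was 11.31 on that array against 13.82 and 13.61, and that of 11 neutrophil markers 10.26 against 11.09 and 11.33, while the macrophage sum was highest there, at 12.28 against 11.84 and 11.80. Without this array Ccl7 (log2 1.60, adjusted p = 1.86e-05), Ccl11 (1.18, 0.023) and Cxcl1 (1.28, 0.00945) were called higher, and Ccl3 and Ccl12 were not called. The part of the array's tissue content in these values was not tested.

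Macrophage markers moved the same way, with 5 of 20 called higher and 0 lower in limma (8 and 1 at an unadjusted p under 0.05), a summed log2 level of 11.35 to 11.43 on normal mock and 11.80 to 12.28 on normal mcIRBP, and 6 and then 12 markers above the threshold on all 3 arrays. On normal mock arrays the defining markers Emr1, Cd68 and Itgam were above it on none. Endothelial markers (4 of 11 higher, 0 lower; summed level 10.29 to 10.50 and then 10.85 to 11.05) and adipocyte markers (3 of 11 higher, 0 lower; 14.72 to 14.90 and then 15.54 to 15.78) did so too, while 14 of 14 liver markers fell (16.05 to 16.15 and then 10.05 to 10.14). At an unadjusted p under 0.05, 4 endothelial and 6 adipocyte markers were higher and 0 of either were lower. With median scaling 2 macrophage, 0 endothelial and 1 adipocyte marker were called higher. The part of these markers in the ligand rises was not tested, and in bulk tissue fewer cells of a type and less RNA per cell cannot be told apart. All 10 calls were lost with median scaling in place of quantile normalization (adjusted p 0.0836 to 0.167, each still higher), and 4 remained with array weights and 1, Ccl9, when only these 6 arrays were fitted or the deposited normalized intensity was used. Ccl12 was not called without normal mock replicate 2 or 3 or normal mcIRBP replicate 2 or 3 (adjusted p 0.0581 to 0.0805), nor Ccl3 without normal mock replicate 1 or 2 or normal mcIRBP replicate 2 or 3 (0.0888 to 0.117).

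**Figure D2:**
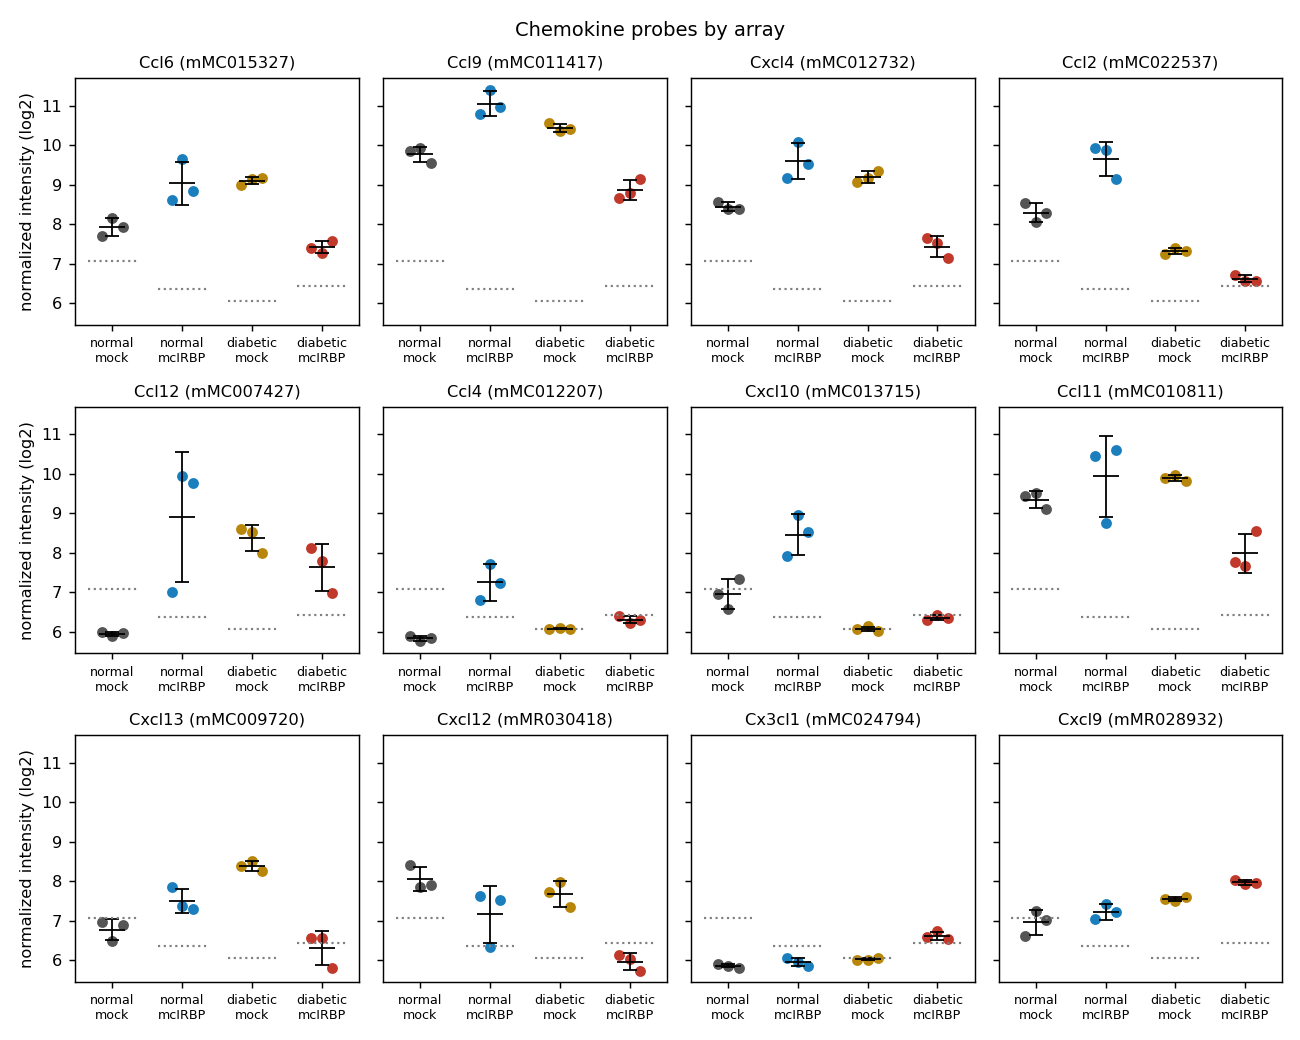
Normalized intensity (log2) of 12 chemokine probes on every array of the 4 groups, with the group mean and SD as bars and, dotted, the group's mean of the lowest normalized value above the threshold. Ccl6, Ccl9 and Cxcl4 are higher on normal mcIRBP than on normal mock arrays and lower on diabetic mcIRBP than on diabetic mock arrays, with no overlap in either pair.

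The second comparison asked the same of diabetic mice. After mcIRBP 7 of the 52 member probes were lower and 1 higher, against 6.77% of all probes called, 3.72% higher and 3.04% lower. The probes that fell were of the CC ligands Ccl6, Ccl9 and Ccl11, the CXC ligands Cxcl4, Cxcl12 and Cxcl13 and the receptor Cxcr3, and the one that rose was of Cx3cl1. The median log2 fold change was -0.41 over CC ligand probes, -0.002 over CXC ligand probes and 0.01 over all probes. With median scaling 0 members were higher and 11 lower, with no share of all probes set beside these counts.

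Cxcl13, which guides B cells into lymphoid follicles, had the largest fall of the 52 probes in this comparison. It had 8.39, 8.5 and 8.26 on the diabetic mock arrays and 6.56, 6.56 and 5.80 on the diabetic mcIRBP arrays, of which 2 were above the threshold. The groups lay far apart for their spread (log2 -2.08, SE 0.23, adjusted p = 0.00027). Ccl11, the eotaxin that attracts eosinophils through Ccr3, went from 9.90, 9.97 and 9.82 to 7.76, 7.66 and 8.56 (log2 -1.90, SE 0.43, adjusted p = 0.0252), or 3.74-fold lower, with all 6 arrays above the threshold. Its close relative Ccl24 went from 6.91, 6.90 and 7.0 to below the threshold on all 3 treated arrays but was not called (adjusted p = 0.113).

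The 3 bright ligands that had risen in normal mice fell here. Ccl6 went from 9.0, 9.15 and 9.16 to 7.40, 7.28 and 7.58 (log2 -1.69, SE 0.23, adjusted p = 0.00117), Ccl9 from 10.56, 10.37 and 10.41 to 8.66, 8.80 and 9.15 (log2 -1.58, SE 0.17, adjusted p = 0.000301), and Cxcl4 from 9.07, 9.16 and 9.35 to 7.64, 7.52 and 7.14 (log2 -1.76, SE 0.21, adjusted p = 0.000495). Treated and control arrays did not overlap in any of the 3, and every treated diabetic array also lay below every normal mock array.

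Cxcl12, the ligand of Cxcr4 that retains blood precursors in their niches, was read by 2 probes, of which 1 passed the test. Probe mMR030418 went from 7.73, 7.98 and 7.34 to below the threshold on all 3 arrays at 6.13, 6.03 and 5.74, at least 2.37-fold lower (log2 -1.72, SE 0.32, adjusted p = 0.00915). Probe mMC021212 had 6.95, 7.43 and 7.09 and then 6.70, 6.90 and 5.74, lower on every treated array, and was not called (log2 -0.71, SE 0.55, adjusted p = 0.756). Cx3cl1, the membrane-tethered fractalkine of endothelium and neurons, went the other way, from 6.02, 6.01 and 6.05 to 6.59, 6.73 and 6.54, with 1 and then 2 of 3 arrays above the threshold (log2 0.60, SE 0.07, adjusted p = 0.000287). The groups did not overlap, but the gene stayed within a log2 unit of the floor.

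Cxcr3, the receptor of Cxcl9 and Cxcl10 on activated T cells, was above the threshold on 2 of 3 diabetic mock arrays, at 6.10, 6.02 and 6.11, and on no treated array, at 5.89, 5.84 and 5.80. The call rested on a small difference (log2 -0.23, SE 0.05, adjusted p = 0.014). No fold is given, because the bound is under 1. Ligands that had risen in normal mice and were not called here were Ccl2 (log2 -0.70, adjusted p = 0.0641), Ccl3 (-0.20, 0.85), Ccl4 (0.23, 0.757), Ccl12 (-0.74, 0.828), Cxcl10 (0.28, 0.812), Cxcl14 (mMC011383; 0.05, 1) and Cxcl16 (mMR001166; -0.09, 0.995).

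Marker genes moved with these falls as well. In diabetic mice 7 of 20 macrophage markers were lower and 0 higher in limma (9 and 0 at an unadjusted p under 0.05), with a summed log2 level of 12.10 to 12.16 on mock and 11.39 to 11.62 on mcIRBP arrays. The counts were 6 lower and 0 higher of 11 endothelial markers (8 and 0 unadjusted; summed level 10.47 to 10.59 and then 9.77 to 9.83) and 8 lower and 0 higher of 11 adipocyte markers (10 and 0 unadjusted; 15.39 to 15.52 and then 12.63 to 12.75). All 14 epididymis markers rose, from 11.47 to 11.56 up to 16.46 to 16.58. Their part in the ligand falls was not tested. Ccl11 was not called without any 1 of diabetic mock replicates 1, 2 and 3 or diabetic mcIRBP replicates 1 and 2 (adjusted p 0.0785 to 0.0983), nor Cxcr3 without diabetic mock replicate 1 or 3 or diabetic mcIRBP replicate 2 or 3 (0.0552 to 0.0778). Array weights, a fit of these 6 arrays and the deposited normalized intensity each called 17 members, while Cx3cl1 was not called with median scaling (log2 0.36, adjusted p = 0.061). The shares of all probes called under these settings are not given, so the 17 is not a result about the members in particular.

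**Figure D3:**
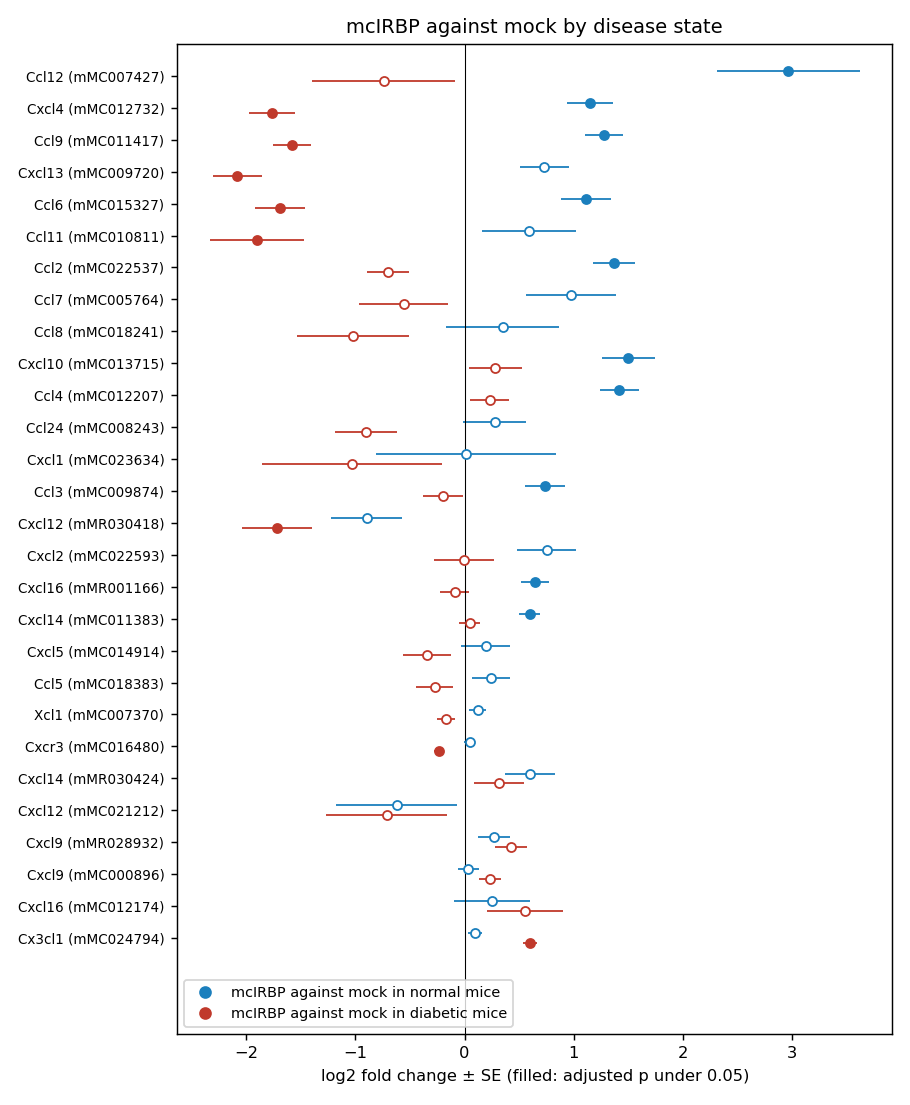
Log2 fold change of mcIRBP against mock with its SE for the 28 probes given with values, in normal mice (blue) and diabetic mice (red), filled where the adjusted p was under 0.05. Points of both colours are filled for 3 probes, Ccl6, Ccl9 and Cxcl4, with blue to the right of 0 and red to the left.

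Whether the effect of mcIRBP differed between disease states was tested directly as the difference of the 2 effects, diabetic minus normal. It was called for 12 member probes, 11 negative and 1 positive, against 9.11% of all probes, 4.27% positive and 4.84% negative. The median difference was -1.18 over CC ligand probes, -0.41 over CXC ligand probes and 0.03 over all probes. For Ccl6 the difference was -2.80 (SE 0.32, adjusted p = 0.000341), for Ccl9 -2.86 (SE 0.25, adjusted p = 4.2e-05) and for Cxcl4 -2.91 (SE 0.30, adjusted p = 0.00014). These 3 genes were the only members called higher in normal mice and called lower in diabetic mice. Ccl2, called higher in normal mice, also lay lower in diabetic mice without overlap but missed the threshold there. It had 7.24, 7.40 and 7.33 on diabetic mock and 6.72, 6.57 and 6.57 on diabetic mcIRBP arrays (log2 -0.70, adjusted p = 0.0641). This fall was called in 4 of 13 alternative settings.

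In other ligands the difference was carried mainly by 1 state. Ccl12 (-3.70, SE 0.93, adjusted p = 0.0338), Ccl2 (-2.06, SE 0.27, adjusted p = 0.000848) and Ccl4 (-1.19, SE 0.25, adjusted p = 0.0154) had passed the test in normal mice and not in diabetic mice. Cxcl13 (-2.81, SE 0.32, adjusted p = 0.000315) and Ccl11 (-2.49, SE 0.61, adjusted p = 0.0299) had fallen in diabetic mice and had positive but uncalled effects in normal mice (log2 0.73 and 0.59, adjusted p 0.0986 and 0.457). Cxcl10 missed the threshold (-1.22, adjusted p = 0.057), as did Ccl3 (-0.93, adjusted p = 0.0513), so a different effect of mcIRBP on these genes in the 2 states was not shown. For the Cxcl12 probe mMR030418 the difference was -0.82 (adjusted p = 0.349). Cxcl16 probe mMR001166 was called at -0.74, while its probe mMC012174 had 0.30 and was not called (adjusted p = 0.769). Cxcl14 probe mMC011383 was called at -0.55, while its probe mMR030424 had -0.28 and was not called (adjusted p = 0.673).

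Leaving out diabetic mock replicate 1 or diabetic mock replicate 3 brought the 12 calls to 7. Ccl2, Ccl4, Ccl6, Ccl9, Cxcl4, Cxcl13 and Cx3cl1 remained called with each of the 12 arrays left out in turn. Ccl12 was not called without any array other than normal mcIRBP replicate 1 and diabetic mcIRBP replicate 1 (adjusted p 0.0534 to 0.0848). Ccl11 was not called without normal mock replicate 3, normal mcIRBP replicate 1 or 3, any diabetic mock array, or diabetic mcIRBP replicate 1 or 2 (0.0597 to 0.0769). The same held for Cxcl14 without any array other than normal mock replicate 2, normal mcIRBP replicate 3 and diabetic mcIRBP replicate 3 (0.0542 to 0.102). It held for Cxcl16 without normal mock replicate 1, normal mcIRBP replicate 3 or any diabetic array (0.0526 to 0.0886), and for Cxcr3 without diabetic mock replicate 1 or 3 or diabetic mcIRBP replicate 2 or 3 (0.064 to 0.0862). Without normal mcIRBP replicate 2, Ccl7 (-2.16, adjusted p = 1.22e-05), Cxcl1 (-2.31, 0.000946), Cxcl5 (-0.84, 0.0141) and the Cxcl12 probe mMR030418 (-1.23, 0.0283) were called as well. Ccl3 and Cxcl10 were called without normal mock replicate 3 (-1.13, adjusted p = 0.00926, and -1.41, 0.0314) or without normal mcIRBP replicate 1 (-1.12, 0.0114, and -1.49, 0.00712). With median scaling Ccl4 (-1.39, adjusted p = 0.0692) and Cx3cl1 (0.31, adjusted p = 0.165) were not called.

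In the same difference 9 of 20 macrophage, 8 of 11 adipocyte, 6 of 11 endothelial and 5 of 11 fibroblast markers were called negative, and all 14 liver and all 14 epididymis markers positive. The part of these markers in the differences of the ligands was not tested.

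Diabetic mock mice were next set against normal mock mice, a comparison that sex and the normalization set share with disease state, so that they cannot be told apart. It called 8 member probes higher and 2 lower, against 8.39% of all probes, 4.57% higher and 3.82% lower. Cxcl13 was higher by 1.61 on the log2 scale (SE 0.23, adjusted p = 0.00187), from 6.96, 6.48 and 6.88 to 8.39, 8.5 and 8.26, where 1 and then 3 arrays were above the threshold. Ccl6 (log2 1.17, SE 0.23, adjusted p = 0.0123) and Ccl9 (log2 0.67, SE 0.17, adjusted p = 0.0438) were higher too, and Cxcl4 missed the threshold (log2 0.75, adjusted p = 0.0574). Ccl12 missed it by less, with the largest positive difference of the 52 probes: it was at least 2.45-fold higher, from below the threshold on every normal mock array to 8.60, 8.53 and 7.99 (adjusted p = 0.0502). Cxcl10 missed it in the other direction (log2 -0.89, adjusted p = 0.0522), with no overlap, and was called without normal mock replicate 2 (-1.08, 0.0338). Over 12 alternative settings its estimate ran from -1.08 to -0.01 (adjusted p 0.0273 to 0.979), and 5 of them called it.

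The interferon-induced ligand Cxcl9 was higher by both of its probes. Probe mMR028932 had 6.61, 7.24 and 7.02 on normal mock and 7.54, 7.5 and 7.60 on diabetic mock (log2 0.59, SE 0.15, adjusted p = 0.0349), and probe mMC000896 had 6.12, 5.95 and 6.20 and then 6.56, 6.46 and 6.56 (log2 0.44, SE 0.10, adjusted p = 0.024). Neither probe overlapped between the groups. Ccl5, a ligand made by T cells (5.78, 5.82 and 5.70 and then 6.44, 6.72 and 6.49), Xcl1, a ligand of T and NK cells (5.71, 5.69 and 5.74 and then 6.05, 6.03 and 5.99), and Cxcr3 (log2 0.21) were called higher at levels near the floor, all 3 below the threshold on every normal mock array, as was Cxcl9 probe mMC000896, and for none of these is a fold given. The call was lower for Cxcl5, from 8.60, 8.88 and 8.44 to 7.05, 6.84 and 6.76 (log2 -1.76, SE 0.22, adjusted p = 0.000916), and for Ccl2, from 8.53, 8.06 and 8.29 to 7.24, 7.40 and 7.33 (log2 -0.97, SE 0.19, adjusted p = 0.0136).

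The marker lists differed as well. In diabetic mock against normal mock mice 14 of 14 liver and 7 of 18 skeletal muscle markers were called lower, and 10 of 14 epididymis, 5 of 20 macrophage, 2 of 11 endothelial and 2 of 11 adipocyte markers higher, with 1 adipocyte marker lower. Of 11 fibroblast markers 0 were called higher and 1 lower. With median scaling 18 of 20 macrophage, 11 of 11 endothelial, 9 of 11 adipocyte and 10 of 11 fibroblast markers were called higher, with 0 lower. That scaling also called 7 of 16 T and NK cell markers higher and 2 lower, and 5 of 10 B cell markers higher and 1 lower. Liver stayed at 14 of 14 lower and epididymis at 10 of 14 higher. No share of all probes is set beside these counts, so they cannot be read as particular to any list. The part of these markers in the ligand calls was not tested.

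The lower calls of Cxcl5 and Ccl2 depended on the scaling. With median scaling Ccl2 was higher by 0.71 (adjusted p = 0.223) and Cxcl5 was at -0.08 (adjusted p = 0.794). That scaling called 24 members, 20 higher and 4 lower, but no share of all probes is set beside this count. It also called 27 higher and 1 lower of 41 genes of chemokine receptor signalling, against 5 and 0 with quantile normalization. Of 35 genes that induce chemokine transcription it called 22 higher and 2 lower, against 4 and 1. The share of all probes called with median scaling is not given, so these counts cannot be read as particular to the lists. The 10 calls came to 3 without diabetic mock replicate 1, to 5 without diabetic mock replicate 2 and to 2, Cxcl13 and Cxcl5, without diabetic mock replicate 3. Without each of the 6 arrays in turn Ccl9 (adjusted p 0.0552 to 0.155) and Xcl1 (0.0589 to 0.139) were not called. Ccl6 was not called without diabetic mock replicate 3 (0.0543), Ccl2 without diabetic mock replicate 1 or 3 (0.0534 to 0.0621), and Cxcr3 without the same 2 arrays (0.109 to 0.115). Without any 1 diabetic mock array or normal mock replicate 3, neither Ccl5 (0.057 to 0.0874) nor Cxcl9 probe mMR028932 (0.058 to 0.124) was called, and without any 1 diabetic mock array or normal mock replicate 2 Cxcl9 probe mMC000896 was not (0.0524 to 0.0966). Ccl8 was above the threshold on all 3 diabetic mock arrays, at 6.39, 8.51 and 6.52, and on no normal mock array, but its spread was wide (adjusted p = 0.17).

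Between the treated groups, diabetic mcIRBP against normal mcIRBP, 16 member probes were lower and 3 higher, against 11.6% of all probes, 5.99% higher and 5.6% lower. The groups are those of the comparisons above, so these calls are not independent of them. Ccl2 had the largest difference of the 52 probes, from 9.93, 9.89 and 9.15 to 6.72, 6.57 and 6.57 (log2 -3.03, SE 0.19, adjusted p = 4.96e-06). Cxcl1 had the next largest but was not called, from 10.22, 6.87 and 11.09 to 6.47, 6.50 and 6.64 (log2 -2.86, adjusted p = 0.0519), and without normal mcIRBP replicate 2 it was (-4.12, 3.86e-06). Among the called probes Ccl2 was followed by Cxcl5 (log2 -2.29, adjusted p = 0.000101), Ccl9 (-2.19, 2.58e-05), Cxcl4 (-2.17, 9.77e-05) and Cxcl10 (-2.10, 0.000343). Ccl7 was at least 2.16-fold lower (adjusted p = 0.0204) and Cxcl2 at least 1.78-fold lower (adjusted p = 0.0121), both below the threshold on every diabetic mcIRBP array.

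The other lower calls were Ccl3, Ccl4, Ccl6, Ccl11, Ccl24, Cxcl12 (mMR030418), Cxcl13, Cxcl14 (mMC011383) and Cxcl16 (mMR001166), with log2 fold changes between -0.43 and -1.94. The second probes of Cxcl12, Cxcl14 and Cxcl16 were not called. They had log2 -0.11 for Cxcl12 (mMC021212, adjusted p = 0.943), 0.44 for Cxcl14 (mMR030424, 0.276) and 0.21 for Cxcl16 (mMC012174, 0.78). The probes called higher were Cx3cl1, at least 1.2-fold (log2 0.67, adjusted p = 0.000109), and both probes of Cxcl9 (log2 0.74 for mMR028932 and 0.64 for mMC000896, adjusted p 0.00845 and 0.00222). The calls of Ccl11 (adjusted p 0.053 to 0.067), Cxcl14 (0.0547 to 0.0812), Ccl7 (0.0514 to 0.0698), Cxcl12 (0.069 to 0.13) and Ccl24 (0.0513 to 0.145) were lost when single arrays were left out. For Ccl24 each of the 6 arrays did this, for Ccl7 and Cxcl12 each but normal mcIRBP replicate 2, for Ccl11 normal mcIRBP replicates 1 and 3 and diabetic mcIRBP replicates 1 and 2, and for Cxcl14 normal mcIRBP replicates 1 and 2 and the same 2 diabetic arrays. Ccl12 was called without normal mcIRBP replicate 1 (log2 -2.23, adjusted p = 0.00163, against -1.28 and 0.271 with it). Median scaling and a fit of these 6 arrays alone each called 10 members, with no share of all probes set beside these counts.

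Between the treated groups 9 of 11 adipocyte, 7 of 11 endothelial, 7 of 11 fibroblast and 8 of 20 macrophage markers were called lower, with 1 macrophage marker higher, and all 14 epididymis markers higher. With median scaling the lower calls were 6 adipocyte, 2 endothelial, 1 fibroblast and 3 macrophage markers, with no share of all probes set beside these counts. Their part in the lower ligand levels was not tested.

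The receptors gave little to compare. None of the 16 receptor probes was above the threshold on all 3 arrays of any group, and 13 were below it on all 12 arrays. Ccr2, Ccr8 and Cxcr3 were above it on some diabetic mock arrays. In limma 0 of 10 CC receptor probes and 0 of 2 CX3C and XC receptor probes were called in any of the 5 comparisons, with 0 at an unadjusted p under 0.05. Among the CC receptors were those of the ligands described above, Ccr1 of Ccl6 and Ccl9, Ccr2 of Ccl2, Ccl7 and Ccl12, and Ccr3 of Ccl11 and Ccl24. A change in such genes was not detectable at these intensities, which is not evidence that they were absent.

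The other 24 members, 15 receptors and 9 ligands, spanned only 5.66 to 6.40 over all 12 arrays. The ligands were Ccl1, Ccl17, Ccl20, Ccl22, Ccl25, Cxcl3, Cxcl11, Cxcl15 and Cxcl17, and none of the 24 was called. Over the 5 comparisons 59 calls were made on the 52 probes, and 29 probes were called in none.

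Many chemokine genes lie in groups on the genome. On chromosome 11, Ccl5, Ccl9, Ccl6, Ccl3 and Ccl4 lie within 10 protein-coding genes of each other in RefSeq, and 4 of these 5 rose in normal mice. The neighbouring group of Ccl2, Ccl7, Ccl11, Ccl12, Ccl8 and Ccl1 had 2 of 6 higher. On chromosome 5, only Cxcl4 was called among Cxcl5, Cxcl4, Cxcl3, Cxcl15, Cxcl1 and Cxcl2 in either comparison of mcIRBP with mock. The 7 receptor genes Ccr9, Cxcr6, Xcr1, Ccr1, Ccr1l1, Ccr3 and Ccr2 on chromosome 9 had 0 calls in limma, and 0 at an unadjusted p under 0.05, in each of the 5 comparisons. Genes of one group have similar sequences, and how far their probes share signal was not tested.

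Genes that act around chemokines were read with 3 lists. Of all probes 6.17% were called in normal mice and 6.77% in diabetic mice, mcIRBP against mock. Of 18 related genes whose symbols the rule does not take, 2 were higher and 0 lower in normal mice (4 and 1 at an unadjusted p under 0.05). In diabetic mice 1 of them was higher and 2 lower (3 and 3 unadjusted). Fpr-rs2, a formyl peptide receptor of phagocytes, was below the threshold on every normal mock array and went from 6.39 ± 0.15 to 7.69 ± 0.21 (SD, n = 3) in normal mice (adjusted p = 4.07e-05) and from 7.58 ± 0.01 to 6.95 ± 0.11 in diabetic mice (adjusted p = 0.00517). Ccbp2, a decoy receptor that removes CC ligands, rose in normal mice (adjusted p = 0.00234, with 0 and then 2 of 3 arrays above the threshold). Rarres2, which encodes the attractant chemerin, fell in diabetic mice (log2 -1.24, adjusted p = 0.0301), and Cklf rose there (log2 0.66, adjusted p = 0.0252).

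Of 41 genes of chemokine receptor signalling, 3 were higher and 0 lower in normal mice (11 and 2 unadjusted). In diabetic mice 1 of them was higher and 1 lower (3 and 5 unadjusted). The counts of adjusted calls were near the 6.17% and 6.77% of all probes called in the same comparisons. Stat3, a transcription factor activated by cytokines, rose in normal mice from 7.45 ± 0.09 to 8.42 ± 0.20 (SD, n = 3, adjusted p = 0.000209). The kinase gene Jak2 rose there as well, from below the threshold on every mock array (adjusted p = 0.0371), and the phospholipase gene Plcb2 fell in diabetic mice (log2 -1.01, adjusted p = 0.0261). Gnb2, a G protein subunit, was called in neither treatment comparison (adjusted p 0.136 and 0.985). It was called higher in diabetic than in normal mock mice (log2 1.36, adjusted p = 0.0103), where sex coincides with disease state.

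Of 35 genes that induce chemokine transcription, 5 were higher and 0 lower in normal mice (9 and 1 unadjusted). In diabetic mice 1 of them was higher and 2 lower (1 and 6 unadjusted). Cd14, the lipopolysaccharide co-receptor of macrophages, rose by 0.97 in normal mice (adjusted p = 0.039) and fell by 1.79 on the log2 scale in diabetic mice (adjusted p = 0.000974). Tlr2, a receptor for bacterial lipoproteins, rose in normal mice (adjusted p = 0.000908) and fell in diabetic mice (adjusted p = 0.00845), where the lower group of each pair was below the threshold on every array, so no size is given. Nfkb1, a subunit of NF-kB, rose in normal mice from below the threshold on every mock array (adjusted p = 0.0194) and was not called in diabetic mice (log2 -0.22, adjusted p = 0.901). Fos, a subunit of AP-1, was called in neither (adjusted p 0.608 and 0.345). It was called lower in diabetic than in normal mice between the mock groups (log2 -0.94, adjusted p = 0.000256) and between the mcIRBP groups (adjusted p = 8.01e-05). Sex coincides with disease state in both of these. With median scaling none of these lists had a call in normal mice. In diabetic mice that scaling called 1 higher and 4 lower of the 18 related genes, 0 and 10 of the 41 signalling genes and 0 and 6 of the 35 inducers, and the sign of each list's median was kept. No share of all probes is set beside these counts.

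The summed level of the 52 members ran from 12.68 to 12.80 on normal mock, 13.41 to 13.67 on normal mcIRBP, 12.92 to 13.00 on diabetic mock and 12.21 to 12.25 on diabetic mcIRBP arrays, in log2 units. The 4 groups did not overlap on this scale, which the brightest probes dominate. The adipocyte and endothelial marker sums were also lowest on diabetic mcIRBP and highest on normal mcIRBP arrays, while the macrophage sum overlapped between normal mock and diabetic mcIRBP arrays and, at a higher level, between normal mcIRBP and diabetic mock arrays. Lymphocyte markers were near the floor: 0, 1, 3 and 1 of 16 T and NK cell markers and 0, 0, 2 and 0 of 10 B cell markers passed the threshold on each of a group's 3 arrays, in the group order used above. Cd3d, Cd5, Cd4 and Cd28 were above it on no array. In normal and then diabetic mice, mcIRBP against mock called 2 higher and then 2 lower of 11 fibroblast markers, none and then 1 in each direction of 11 neutrophil markers, 1 higher and then none of 9 dendritic cell markers, and none and then 1 lower of 9 mast cell markers.

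**Figure D4:**
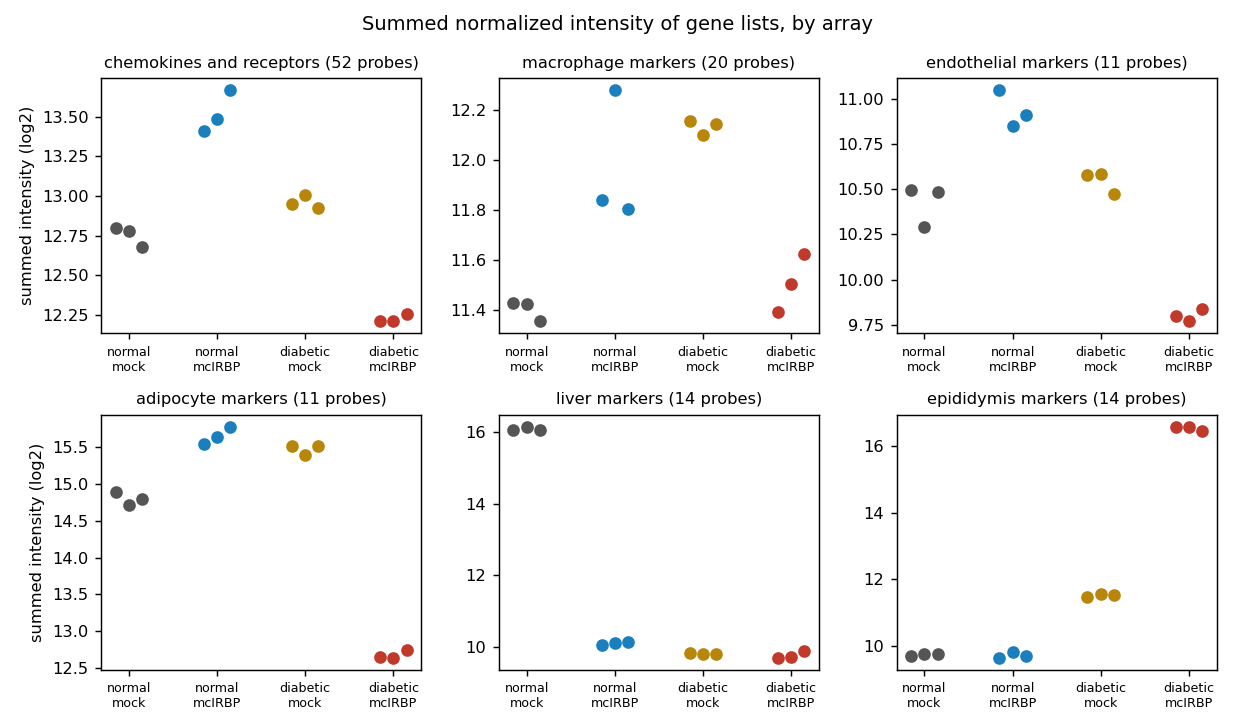
Summed normalized intensity (log2) on each array for the 52 chemokine and receptor probes and for marker lists of macrophages, endothelium, adipocytes, liver and epididymis, each panel with its own scale. Liver markers are high only on normal mock arrays (16.05 to 16.15) and epididymis markers reach 16.46 to 16.58 on diabetic mcIRBP arrays.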

How the data were processed

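RNA was read on 12 1-colour mouse arrays, 3 in each of 4 groups. The authors deposited for each array a raw and a normalized intensity per probe on a linear scale, per the file headers. Limma is named without a version in the submitters' processing notes, and the sources used here do not say whether a background had been subtracted. Within each disease state the deposited normalized intensities had nearly the same distribution, with medians of 62.9 to 63.2 in normal and 40 to 41 in diabetic mice.

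The deposited raw intensities were background-corrected (normexp, offset 50), quantile-normalized over all 12 arrays and put on the log2 scale. All 29922 probes were fitted with limma 3.58.1 (R 4.3.3, statmod 1.5.0) in a model of 4 groups with 8 residual degrees of freedom. Calls used Benjamini-Hochberg adjusted p under 0.05 over all probes, and the fit was tested on simulated data. A fold against a group below the threshold of 5 SD above the floor on every array is a bound. With both such groups below it, or a bound under 1, no fold is given. The number of arrays limits the precision. Values were given for member probes called in any comparison or above the threshold on all 3 arrays of a group. Of the genes of each related list that passed the same test, up to 4 with the lowest p in any comparison were given. Their p-values are therefore no separate support for the lists. Sequences are from RefSeq, GRCm38.p6. All members and lists were chosen with earlier results of these data known. Alternatives changed the scaling, the background, the filter, array weights, the arrays fitted, the value source, the replicate block and single arrays.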

Additional observations from a re-analysis of the deposited data

Results flagged for a closer look

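The effect of mcIRBP differed between diabetic and normal mice for 12 chemokine probes when the difference itself was tested (limma, Benjamini-Hochberg adjusted p under 0.05 over all probes). On the log2 scale, as diabetic minus normal, the difference was -2.91 for Cxcl4, -2.86 for Ccl9, -2.80 for Ccl6, -2.81 for Cxcl13, -3.70 for Ccl12, -2.49 for Ccl11, -2.06 for Ccl2 and -1.19 for Ccl4. It was -0.74 for Cxcl16 (mMR001166), -0.55 for Cxcl14 (mMC011383) and -0.28 for Cxcr3. The second probes of Cxcl16 (mMC012174, 0.30, adjusted p = 0.769) and Cxcl14 (mMR030424, -0.28, adjusted p = 0.673) were not called. The 1 positive difference was that of Cx3cl1, at 0.50. Sex and the set of arrays normalized together coincided with disease state and cannot be told apart from it here. In the same difference all 14 liver and all 14 epididymis markers were called positive, and 8 of 11 adipocyte markers negative. The mock and mcIRBP arrays thus differed in tissue markers as well, and the part of this in the chemokine differences was not tested.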

How the results depend on the processing

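Of 779 alternative values for the 59 calls, 594 kept direction and side of the threshold, 184 kept the direction only and 1 turned, Ccl2 in diabetic against normal mock mice with median scaling (0.71). Only 18 of the 59 calls were kept under all alternatives. With median scaling the member calls were 0 in normal mice (10 in the text), 24 between the mock groups (10) and 10 between the mcIRBP groups (19). Array weights gave 4 in normal mice, 17 in diabetic mice (8) and 6 between the mock groups. A fit of the 2 groups alone gave 1 in normal mice, 17 in diabetic mice and 10 between the mcIRBP groups, and the deposited normalized intensity gave 1 and 17 in normal and diabetic mice. The cause of these shifts was not tested. The share of all probes called under each of these settings is not given here. The counts therefore cannot be read as particular to the members. Leaving out 1 array at a time gave 8 to 11 calls in normal mice, 6 to 7 in diabetic mice, 7 to 14 for the difference, 2 to 9 between the mock groups and 14 to 18 between the mcIRBP groups. With 2 of 3 arrays sufficing, 16 members in place of 9 were above the threshold in diabetic mcIRBP mice.

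With the replicate number as a block (replicate block) the calls were 8 in normal mice, 8 in diabetic mice, 9 for the difference, 8 between the mock groups and 19 between the mcIRBP groups. Same-numbered mock and mcIRBP arrays did not deviate together: the correlations across probes were -0.05, -0.15 and -0.001 in normal and -0.34, 0.11 and 0.25 in diabetic mice, so the numbers were not taken to pair samples. Most receptors and 9 ligands lay at the floor, where a change could not be read.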
